A study of Mus musculus with 15 samples.

Results

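The serine-threonine phosphatase subunits are the protein-coding transcripts whose GENCODE M21 gene name begins with Ppp followed by a family number from 1 to 6, or with Ppm1, with Ppp1r1b left out. The rule used names only and no measured value. It found 75 of the 10370 listed transcripts, belonging to 60 of the 7741 listed genes, while 26 of the 86 genes that match the rule in the annotation had no listed transcript. These data come from dissected cortex of male C57BL/6 mice labelled 12 weeks old, collected at 1 month from mice exposed to HF-HI (head impacts at high frequency) and from Sham mice. HF-HI mice were given many mild head impacts under isoflurane in daily sessions, while in Sham the sessions and isoflurane were kept and the impacts left out. The labels give 7 Sham and 8 HF-HI libraries and do not say whether each is a separate mouse, so p-values measure the spread between these libraries. The measured quantity is the normalized count of each transcript, which is its reads divided by the size factor of the library, recovered from deposited values that were variance-stabilized (VSD, a log2 scale). Each SD is taken over the 7 libraries of Sham or the 8 of HF-HI.

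Serine-threonine phosphatases remove phosphate groups from proteins and so oppose the kinases of the synapse. PP1, PP2A, PP4 and PP6 pair a small set of catalytic subunits with many regulatory subunits that set where the enzyme sits and what it acts on. Calcineurin (PP2B, the Ppp3 genes) is switched on by calcium and calmodulin through a catalytic A and a regulatory B subunit, and the metal-dependent PPM enzymes work mostly as single chains. In cortical neurons PP1 and calcineurin are best known for synaptic depression, in which they dephosphorylate glutamate receptors and CaMKII.

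The libraries held between 3496103 and 10582858 recovered reads over all listed transcripts, and the phosphatase transcripts took between 1.11% and 1.20% of these reads in every library. A member transcript had a median of 579 reads in a library and was never at 0. Size factors were lower in HF-HI, with a difference in mean log2 size factor of −0.55 (exact two-sided permutation p = 0.0258), so depth and group overlap in these libraries. HF-HI replicate 2 stood apart on the first principal component of all transcripts. Markers of cortical excitatory neurons were present for 11 of 11 genes, with 3 of 13 transcripts higher (Camk2a, Neurod2 and Rorb, limma unadjusted p below 0.05) and summed levels of 19378 to 21286 normalized counts in Sham and 20164 to 22145 in HF-HI. Markers of striatal neurons were also present for 9 of 11 genes, with 3 of 17 transcripts lower (Pde10a, Ppp1r1b and Penk) and summed levels of 8442 to 12216 in Sham and 6121 to 11643 in HF-HI, while Drd2 and Gpr6 were not listed. Of the markers of interneurons, oligodendrocytes and endothelium none passed that threshold (0 of 7, 0 of 16 and 0 of 5 transcripts), and of astrocytes and microglia 1 of 11 (Aldoc, lower) and 1 of 5 (P2ry12, lower) did. Over all 10370 listed transcripts 8.83% passed it, with 4.94% higher and 3.9% lower in HF-HI. Ttr, the only choroid plexus marker listed, spanned 35 to 6685 normalized counts across Sham and 21 to 8663 across HF-HI. The part of depth and of tissue composition in the differences below was not tested beyond the values given beside them. In bulk tissue, fewer cells of a type and less RNA per cell cannot be told apart.

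No phosphatase transcript passed the Benjamini-Hochberg adjusted threshold of 0.1 in limma (0 of 75, as 0 of all 10370), the lowest adjusted value being 0.422. Below an unadjusted p of 0.05, 10 of 75 phosphatase transcripts (13.3%) differed, with 7 higher and 3 lower in HF-HI, against 916 of 10370 (8.83%) over all listed transcripts, with 512 (4.94%) higher and 404 (3.9%) lower. None of the 75 had groups that did not overlap, as did 16 (0.154%) of all transcripts. The median log2 ratio of mean normalized counts, HF-HI to Sham, was 0.00 over the phosphatase transcripts, which ranged from −0.65 to 0.49, and 0.00 over all transcripts. With the log2 size factor as a covariate, 3 phosphatase transcripts passed the unadjusted threshold and none of them was among the 10, while 533 (5.14%) of all transcripts passed. Without HF-HI replicates 2 and 4, the library that stood apart and the one of lowest depth, 5 passed, of which 4 were among the 10, and leaving out 1 library gave 4 without Sham replicate 1 and 6 without Sham replicate 2 or 6. The share of all transcripts passing without these libraries is not given here. Every value of a single transcript given below as higher or lower is at the unadjusted threshold only.

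**Figure D1:**
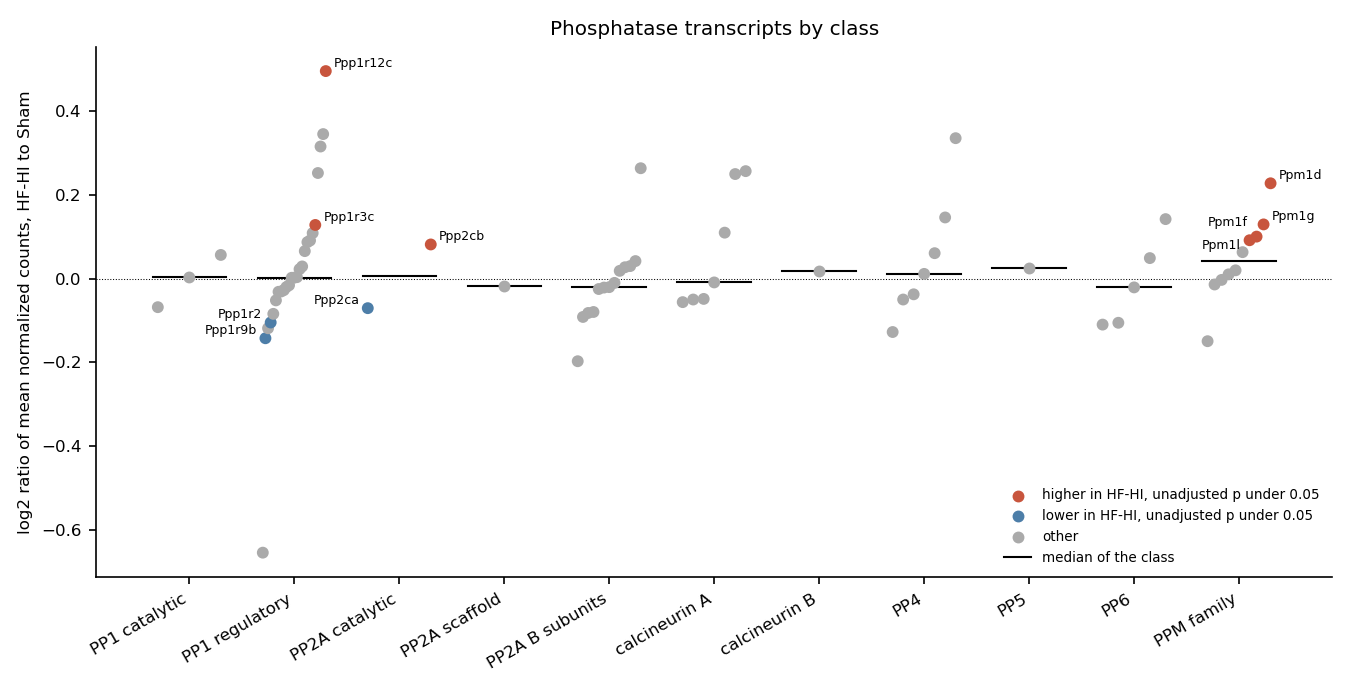
Each point is 1 of the 75 phosphatase transcripts, placed by class on the horizontal axis and by its log2 ratio of mean normalized counts (HF-HI to Sham) on the vertical axis, with a short line at the median of each class. Points lie between −0.65 and 0.49, and class medians lie near 0. Of the 10 coloured transcripts, 4 belong to the class marked PPM family, which holds only Ppm1 genes.

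The calcineurin genes Ppp3ca and Ppp3r1 led the levels among the subunits compared here. Per kb of transcript, and summed over the listed protein-coding transcripts of each gene, the normalized counts of Ppp3ca (the Aα catalytic subunit) were 3608 ± 195 in Sham and 3659 ± 198 in HF-HI, and those of Ppp3r1 (the calcium-binding B subunit) were 2504 ± 97.2 in Sham and 2534 ± 124 in HF-HI. Among the other catalytic subunits the order by mean was the same in both groups. Ppp1ca came next, followed by Ppp3cb, Ppp2cb, Ppp1cc, Ppp1cb, Ppp2ca, Ppp5c, Ppp6c, Ppp4c and Ppp3cc, with means from 841 down to 92.4 normalized counts per kb in Sham. Neighbours in this order overlapped in Sham for Ppp3cb and Ppp2cb and for Ppp1cc and Ppp1cb, and in HF-HI also for Ppp1ca and Ppp3cb, for Ppp1cb and Ppp2ca, for Ppp6c and Ppp4c and for Ppp4c and Ppp3cc. The scaffold of PP2A, Ppp2r1a, had normalized counts per kb of 1214 ± 31.2 in Sham and 1199 ± 47.0 in HF-HI, above the sum of the means of both PP2A catalytic subunits. A second listed Ppp1cc transcript, ENSMUST00000128309, is annotated to nonsense-mediated decay and was left out of these levels, so Ppp1cc and its place beside Ppp1cb hold for the protein-coding transcript alone. Levels per kb rest on the annotated length of the listed transcripts, so a long annotated end lowers them.

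**Figure D2:**
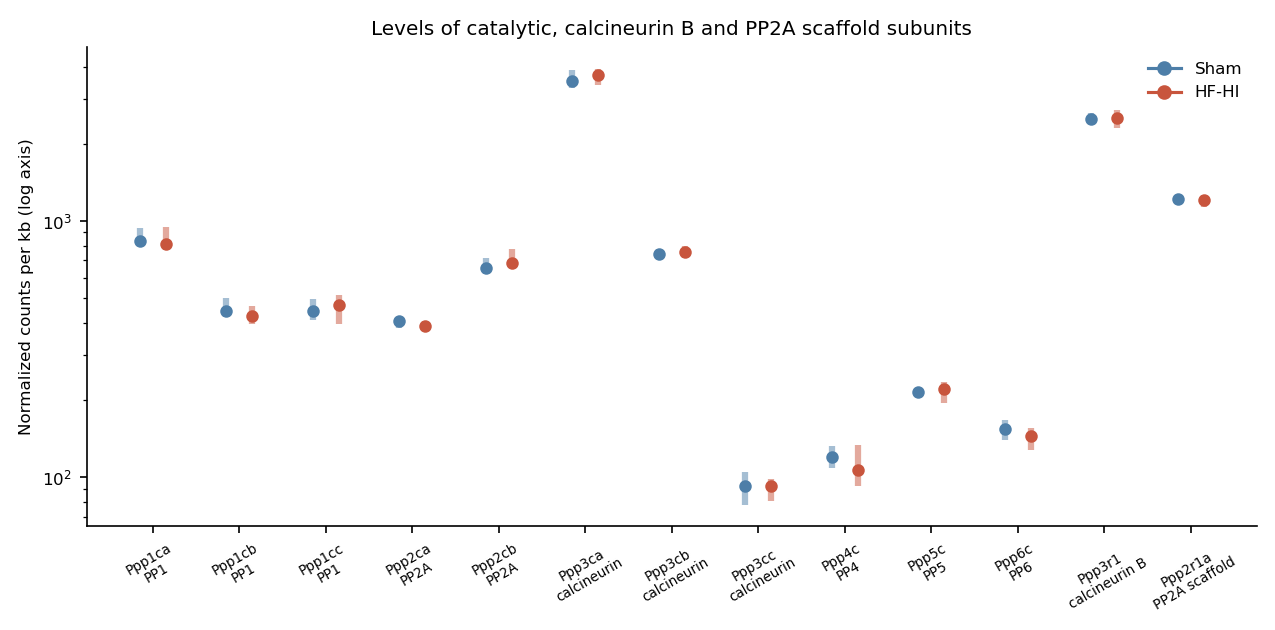
Points are medians and bars run from the lowest to the highest library of normalized counts per kb, summed over the listed protein-coding transcripts of each gene, on a log axis, for Sham and HF-HI side by side. Ppp3ca and Ppp3r1 sit above every other subunit in both groups, and the ranges of Sham and HF-HI overlap for every gene shown.

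The PP1 catalytic subunits showed no transcript past the unadjusted threshold (0 of 3 in limma). Ppp1ca (PP1α; chr19:4192065-4195420, plus strand, 7 exons, GRCm38) lay between 1178 and 1378 normalized counts in Sham, with a median of 1224, and between 1129.6 and 1393 in HF-HI, with a median of 1199. The HF-HI range enclosed the Sham range, and the highest Sham library, replicate 6, was close to the highest HF-HI library. The log2 ratio was 0.00 (limma unadjusted p = 0.981, adjusted p = 0.997), and its sign turned under several settings. Ppp1cb (PP1β) had means of 2680.2 ± 174 in Sham and 2556 ± 157 in HF-HI, with a log2 ratio of −0.07 (limma unadjusted p = 0.159, adjusted p = 0.702). Ppp1cc (PP1γ, the form that spinophilin and neurabin place in dendritic spines) had means of 1074 ± 85.4 in Sham and 1116 ± 96.4 in HF-HI, with a log2 ratio of 0.06 (limma unadjusted p = 0.375, adjusted p = 0.827). With reads of both listed Ppp1cc transcripts summed, the gene stood at 1380.4 ± 118 in Sham and 1389.8 ± 66.2 in HF-HI (limma voom unadjusted p = 0.777, adjusted p = 0.957). As shares of the PP1 catalytic level per kb of the protein-coding transcripts, Ppp1ca made up 48.3% ± 0.846 in Sham and 48.4% ± 2.78 in HF-HI.

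Among the 25 transcripts of 19 PP1 regulatory genes, 2 were higher, 2 were lower and 21 did not pass, with a class median log2 ratio of 0.00. Those that passed made up 16% of the class, beside 8.83% of all listed transcripts. Ppp1r3c (PTG, which brings PP1 to glycogen; ENSMUST00000087321, chr19:36731731-36736653, minus strand, 2 exons) lay between 419 and 505 normalized counts in Sham, with a median of 464, and between 465 and 559 in HF-HI, with a median of 501. Every HF-HI value exceeded the median of Sham and 3 exceeded the whole Sham range, so the ranges overlapped. The means were 459 ± 27.6 in Sham and 501 ± 29.0 in HF-HI, a log2 ratio of 0.13 with a VSD difference of 0.04 ± 0.02 (SE) (limma unadjusted p = 0.0170, adjusted p = 0.470). It stayed at an unadjusted p under 0.05 whichever of the 15 libraries was left out, and its p was 0.141 with the size factor as a covariate. Ppp1r2 (inhibitor-2, which holds PP1 inactive; ENSMUST00000060188, chr16:31251537-31275277, minus strand, 6 exons) lay between 989 and 1135 normalized counts in Sham, with a median of 1041, and between 889 and 1092 in HF-HI, with a median of 975. Of the HF-HI libraries, 7 were lower than the median of Sham and 5 were below every Sham library, while replicate 8 was above all but 1 of the Sham libraries. The means were 1048 ± 57.5 in Sham and 975 ± 63.5 in HF-HI, a log2 ratio of −0.10 with a VSD difference of −0.05 ± 0.02 (SE) (limma unadjusted p = 0.0361, adjusted p = 0.537). Leaving out a single library took this p above 0.05 for 7 of the 15 (Sham replicates 1, 2 and 6 and HF-HI replicates 4, 5, 6 and 7), up to 0.0842. The annotation holds 7 pseudogenes named after Ppp1r2, with which reads could be divided, so its value is uncertain.

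Spinophilin, Ppp1r9b, anchors PP1 in dendritic spines and had 2 listed transcripts with log2 ratios of opposite sign, but with the size factor as a covariate both VSD differences were negative (−0.04 and −0.01). The longer transcript, ENSMUST00000038696 (chr11:94991035-95006899, plus strand, 10 exons), lay between 2870.1 and 3517 normalized counts in Sham, with a median of 3187, and between 2283 and 3312 in HF-HI, with a median of 2943. Of the HF-HI libraries, 7 were lower than the median of Sham, and the ranges overlapped widely. Its means were 3170.4 ± 228 in Sham and 2873 ± 301 in HF-HI, a log2 ratio of −0.14 with a VSD difference of −0.10 ± 0.04 (SE) (limma unadjusted p = 0.0426, adjusted p = 0.555). Leaving out any 1 of 8 libraries (Sham replicates 1, 2, 3, 5 and 6 and HF-HI replicates 4, 7 and 8) took the p above 0.05, up to 0.0953. The shorter transcript, ENSMUST00000107748, begins at another first exon inside the gene (chr11:94996064-95006899) and had means of 1318 ± 208 in Sham and 1569.8 ± 338 in HF-HI, a log2 ratio of 0.25 (limma unadjusted p = 0.0936, adjusted p = 0.627). This transcript made up between 21.9% and 35.9% of the gene's listed reads in Sham, with a median of 29.3%, and between 24.7% and 48.2% in HF-HI, with a median of 36.0%. Means of the share were 29.4% ± 4.41 and 35.3% ± 7.02 (limma on the log2 odds, unadjusted p = 0.0789, adjusted p = 0.736). The pair overlapped over 2624 exonic bases, and the longer transcript held 1884 of its own and the shorter 471. Reads over shared bases cannot be told apart, so the division of reads between them is uncertain. With reads summed over both transcripts, Ppp1r9b stood at 4489 ± 167 in Sham and 4442 ± 216 in HF-HI, a log2 ratio of −0.01 (limma voom unadjusted p = 0.564, adjusted p = 0.903). Its relative Ppp1r9a (neurabin), with 4365 normalized counts in its main transcript over all libraries, had a log2 ratio of 0.00 for that transcript (limma unadjusted p = 0.992, adjusted p = 0.997).

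The largest log2 ratios of the whole set, in both directions, belonged to the pair of Ppp1r12c transcripts, a myosin phosphatase targeting subunit. ENSMUST00000124248 (chr7:4481520-4501361, minus strand, 22 exons) lay between 144 and 454 normalized counts in Sham, with a median of 299, and between 287 and 545 in HF-HI, with a median of 416. Of the HF-HI libraries, 7 exceeded the median of Sham and 3 were above every Sham library. Sham replicate 1, at 144, was far below all other libraries, and Sham replicate 3, at 454, was far above the other Sham libraries. Its means were 294 ± 91.1 in Sham and 415 ± 89.9 in HF-HI, a log2 ratio of 0.49 with a VSD difference of 0.15 ± 0.06 (SE) (limma unadjusted p = 0.0148, adjusted p = 0.450). The limma unadjusted p lay between 0.00269 and 0.0324 over the 15 fits that left out a library, and was 0.385 with the size factor as a covariate. The other transcript, ENSMUST00000013886, lay between 114 and 424 normalized counts in Sham, with a median of 247, and between 71.9 and 311 in HF-HI, with a median of 167. Of the HF-HI libraries, 6 were lower than the median of Sham and 3 were below every Sham library. The means were 277 ± 109 in Sham and 176 ± 89.7 in HF-HI, a log2 ratio of −0.65 (limma unadjusted p = 0.0533, adjusted p = 0.570). Summed over both, the gene stood at 571 ± 67.1 in Sham and 591 ± 74.1 in HF-HI (limma voom unadjusted p = 0.781, adjusted p = 0.957).

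Within Ppp1r12c, ENSMUST00000124248 made up between 27.4% and 80.0% of the gene's listed reads in Sham, with a median of 54.8%, and between 47.9% and 88.3% in HF-HI, with a median of 73.1%. The means of the share were 51.9% ± 16.8 and 70.5% ± 14.0 (limma on the log2 odds, unadjusted p = 0.0280, adjusted p = 0.733), and the groups overlapped. Shares were tested for 28 phosphatase transcripts of 13 genes, and this gene's 2 transcripts, which mirror each other, were the only ones below an unadjusted p of 0.05, against 259 of 4138 (6.26%) transcripts tested in all, of which 3.38% had a higher and 2.88% a lower share. The p rose above 0.05 on leaving out any of Sham replicates 1 and 6 and HF-HI replicates 2, 4 and 8 (up to 0.0666), and was 0.359 with the size factor as a covariate. The pair overlapped over 2664 exonic bases, and ENSMUST00000124248 held only 3 bases of its own while the other held 319 at its upstream end, so few reads can tell them apart and each transcript's value is uncertain.

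Both PP2A catalytic transcripts passed the unadjusted threshold, in opposite directions, while 8.83% of all listed transcripts passed it. Ppp2ca (the Cα subunit; ENSMUST00000020608, chr11:52098681-52127778, plus strand, 7 exons) lay between 2716 and 2987 normalized counts in Sham, with a median of 2893, and between 2626 and 2889 in HF-HI, with a median of 2761. No HF-HI library reached the median of Sham and 3 were lower than the whole Sham range, while Sham replicate 4 lay among the lower HF-HI libraries. The means were 2894 ± 89.8 in Sham and 2756 ± 101 in HF-HI, a log2 ratio of −0.07 with a VSD difference of −0.05 ± 0.02 (SE) (limma unadjusted p = 0.0243, adjusted p = 0.506). Without Sham replicate 1 or 6 the p was above 0.05, up to 0.0538. Ppp2cb (the Cβ subunit; ENSMUST00000009774, chr8:33599625-33619441, plus strand, 7 exons) lay between 909.9 and 1056 normalized counts in Sham, with a median of 963, and between 982 and 1137 in HF-HI, with a median of 1009. The 8 HF-HI values all exceeded the median of Sham, but only HF-HI replicate 2 was above every Sham library. The means were 968 ± 45.4 in Sham and 1025 ± 49.6 in HF-HI, a log2 ratio of 0.08 with a VSD difference of 0.04 ± 0.02 (SE) (limma unadjusted p = 0.0482, adjusted p = 0.561). The p was above 0.05 in 11 of the 15 fits that left out a library, for Sham replicates 1 to 5 and 7 and HF-HI replicates 1, 2, 3, 5 and 7 (up to 0.105). With reads per gene the unadjusted p from limma voom was 0.0556 for Ppp2cb and 0.0321 for Ppp2ca.

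The ratio of Ppp2ca to Ppp2cb normalized counts within a library, which was formed after the values had been seen and is given without a test, lay between 2.82 and 3.18 in Sham, with a median of 3.01, and between 2.33 and 2.85 in HF-HI, with a median of 2.77. For this ratio no HF-HI library reached the median of Sham, and 5 were lower than every Sham library. Per kb, Ppp2ca made up 38.2% ± 0.896 of the PP2A catalytic level in Sham and 35.8% ± 1.65 in HF-HI.

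**Figure D3:**
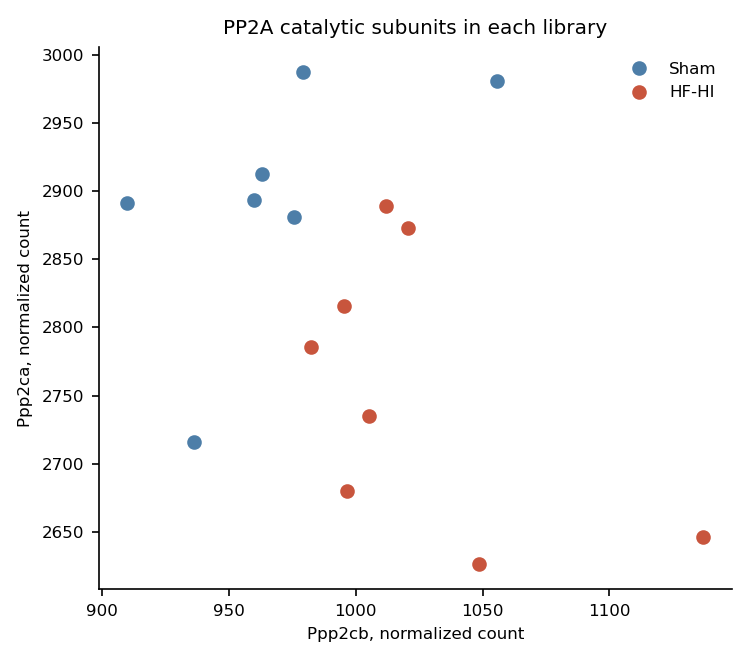
Each point is a library, with Ppp2cb on the horizontal axis and Ppp2ca on the vertical axis in normalized counts; neither axis starts at 0. HF-HI libraries lie below and to the right of most Sham libraries, and HF-HI replicate 2 has the highest Ppp2cb value, 1137.

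The remaining PP2A subunits gave no further transcript past the unadjusted threshold. Ppp2r1a, the A scaffold, had a log2 ratio of −0.02 (limma unadjusted p = 0.509, adjusted p = 0.881), and 0 of 13 transcripts of the 11 B subunit genes passed, with log2 ratios from −0.20 to 0.26 and a class median of −0.02. The neuronal B subunit Ppp2r2c (ENSMUST00000031003), one of the 3 most abundant phosphatase transcripts, lay between 4198 and 4555 normalized counts in Sham, with a median of 4479, and between 4212 and 4851 in HF-HI, with a median of 4510.4. The groups overlapped over most of their range (log2 ratio 0.03, limma unadjusted p = 0.390, adjusted p = 0.833). Ppp2r2b, the brain B subunit whose repeat expansion causes a spinocerebellar ataxia in people, had 2 listed transcripts with log2 ratios of −0.08 and −0.20 (ENSMUST00000117687 and ENSMUST00000025377, limma unadjusted p = 0.356 and 0.126). Summed over both, the gene lay between 645 and 776 normalized counts in Sham, with a median of 729, and between 589 and 717 in HF-HI, with a median of 666. No HF-HI library reached the median of Sham in this sum, and 2 were lower than the whole Sham range. The means were 720.1 ± 39.8 in Sham and 664 ± 38.7 in HF-HI, a log2 ratio of −0.12 (limma voom unadjusted p = 0.0300, adjusted p = 0.470). The p went above 0.05 on leaving out any of Sham replicates 1 and 6 and HF-HI replicates 1 and 7 (up to 0.0705).

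No calcineurin transcript passed the unadjusted threshold (0 of 8 transcripts of 4 genes in limma). The main Ppp3ca transcript, ENSMUST00000070198 (chr3:136670124-136937727, plus strand, 13 exons), was the most abundant phosphatase transcript and lay between 9115 and 10696 normalized counts in Sham, with a median of 9764, and between 8269 and 10227 in HF-HI, with a median of 9630.1. Means were 9836 ± 529 in Sham and 9501 ± 638 in HF-HI, a log2 ratio of −0.05 (limma unadjusted p = 0.284, adjusted p = 0.781). The second, ENSMUST00000056758, lay between 2871 and 3739 normalized counts in Sham, with a median of 3536, and between 3167 and 4113 in HF-HI, with a median of 3701. Its log2 ratio was 0.11 (limma unadjusted p = 0.127, adjusted p = 0.669), the opposite sign of the first, and it turned negative with the size factor as a covariate. As a share it made up between 23.2% and 28.2% of the gene's listed reads in Sham, with a median of 25.2%, and between 24.9% and 33.2% in HF-HI, with a median of 27.3%, with means of 25.6% ± 1.95 and 27.8% ± 2.55 (limma on the log2 odds, unadjusted p = 0.156, adjusted p = 0.772). Summed over both, Ppp3ca stood at 13216 ± 658 in Sham and 13148 ± 698 in HF-HI (limma voom unadjusted p = 0.779, adjusted p = 0.957).

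The Ppp3ca transcripts share a reading frame except for a cassette exon of 30 bases, which ENSMUST00000056758 holds and ENSMUST00000070198 skips. ENSMUST00000070198 extends further at both annotated ends, with 2594 exonic bases of its own. The pair overlapped over 2164 exonic bases, and ENSMUST00000056758 held only 30 of its own. The division of reads between them is therefore uncertain. Ppp3cb has the matching exon, held by ENSMUST00000159027 and ENSMUST00000161445 and not by ENSMUST00000022355 or ENSMUST00000161989. The exon is printed because its presence is the coding difference between the Ppp3ca transcripts. Capitals mark the exon and lower case the 15 coding bases on either side in the spliced transcript, the coordinates are those of the exon on GRCm38, and sequences are from GENCODE M21. The exons of both genes matched at 26 of 30 bases.
Ppp3ca, chr3:136932011-136932040, plus strand: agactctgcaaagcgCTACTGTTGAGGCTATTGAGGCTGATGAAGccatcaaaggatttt
Ppp3cb, chr14:20503247-20503276, minus strand: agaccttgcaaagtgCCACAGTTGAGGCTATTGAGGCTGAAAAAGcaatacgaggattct

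Ppp3cb (the Aβ subunit) had 4 listed transcripts. The most abundant, ENSMUST00000161445, had means of 1644 ± 98.2 in Sham and 1589 ± 152 in HF-HI, a log2 ratio of −0.05 (limma unadjusted p = 0.402, adjusted p = 0.841). ENSMUST00000159027 had means of 414 ± 37.4 in Sham and 398 ± 157 in HF-HI (limma unadjusted p = 0.604, adjusted p = 0.912), and HF-HI replicate 2 alone, at 757, lay far above the rest. Without that library ENSMUST00000159027 was lower in HF-HI at an unadjusted limma p of 0.0275. All exonic bases of ENSMUST00000161445 and of ENSMUST00000022355 lie within ENSMUST00000159027. Reads over shared bases cannot be told apart, so the value of each of these transcripts is uncertain. The exon-skipping ENSMUST00000022355 had means of 229.9 ± 134 in Sham and 275 ± 87.6 in HF-HI (limma unadjusted p = 0.297, adjusted p = 0.787), and Sham replicate 2 had a single read of it. ENSMUST00000161989 had means of 155 ± 34.3 in Sham and 184 ± 39.8 in HF-HI (limma unadjusted p = 0.139, adjusted p = 0.680). Summed over the 4, Ppp3cb stood at 2443 ± 70.2 in Sham and 2446 ± 117 in HF-HI, a log2 ratio of 0.00 (limma voom unadjusted p = 0.941, adjusted p = 0.989). Ppp3cc (the Aγ subunit, best known from testis) had means of 182 ± 17.5 in Sham and 181 ± 10.1 in HF-HI, a log2 ratio of −0.01 (limma unadjusted p = 0.918, adjusted p = 0.986). Ppp3r1, the B subunit, lay between 6811 and 7551 normalized counts in Sham, with a median of 7127, and between 6587 and 7750.1 in HF-HI, with a median of 7230.2. Its groups overlapped throughout, with a log2 ratio of 0.02 (limma unadjusted p = 0.631, adjusted p = 0.918). Within a library, the ratio of summed Ppp3ca to Ppp3r1 normalized counts was 1.85 ± 0.0486 in Sham and 1.82 ± 0.103 in HF-HI.

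**Figure D4:**
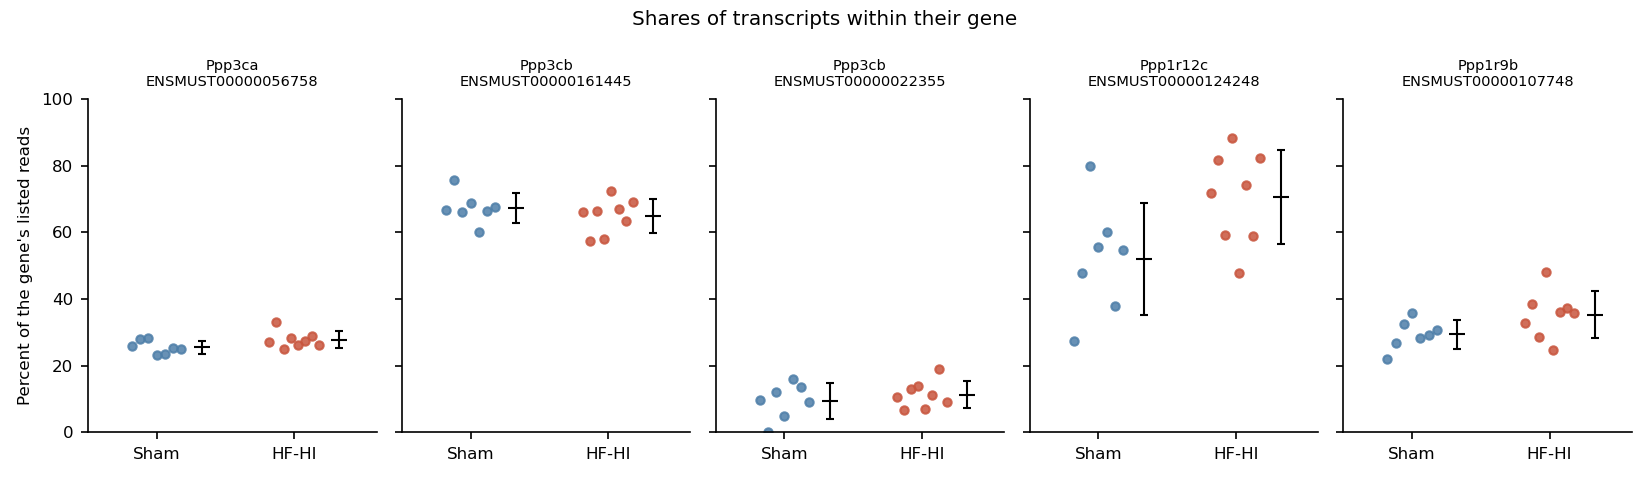
Points are libraries and show the percent of a gene's listed reads held by the named transcript in Sham and HF-HI, with the mean and SD of each group in black beside them. The share of Ppp1r12c ENSMUST00000124248 has means of 51.9% and 70.5% with wide spread, and for each Ppp3ca and Ppp3cb transcript shown the ranges of Sham and HF-HI overlap.

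Of PP4, PP5 and PP6, no transcript passed the unadjusted threshold (0 of 13 in limma), with log2 ratios from −0.13 to 0.33. Ppp4c, the PP4 catalytic subunit, had means of 162 ± 10.8 in Sham and 148 ± 17.9 in HF-HI, a log2 ratio of −0.13 (limma unadjusted p = 0.135, adjusted p = 0.679), and 5 of the 8 HF-HI libraries lay below every Sham library. Ppp5c (PP5, which works with Hsp90) had means of 444 ± 7.89 in Sham and 452 ± 33.7 in HF-HI (limma unadjusted p = 0.612, adjusted p = 0.914). Ppp6c, the PP6 catalytic subunit, had means of 634 ± 43.7 in Sham and 589.6 ± 44.1 in HF-HI, a log2 ratio of −0.11 (limma unadjusted p = 0.0731, adjusted p = 0.598). Ppp4r1, a PP4 regulatory subunit (ENSMUST00000160664), lay between 111 and 196 normalized counts in Sham, with a median of 143, and between 131 and 249.9 in HF-HI, with a median of 179. Of its HF-HI libraries, 7 exceeded the median of Sham and 3 were above every Sham library. Its log2 ratio was 0.33, at limma unadjusted p = 0.0516, adjusted p = 0.569 for the transcript and limma voom unadjusted p = 0.0496, adjusted p = 0.529 for the gene. The gene's p was above 0.05 in 10 of the 15 fits that left out a library (Sham replicates 1, 2, 3, 5 and 6 and HF-HI replicates 2, 3, 4, 6 and 8), up to 0.136.

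The class named PPM family holds only genes named Ppm1, and metal-dependent phosphatases under other names are counted in a list given below. Of the 10 Ppm1 transcripts of 9 genes, 4 were higher and none was lower, beside 8.83% called and 4.94% higher over all transcripts. The median log2 ratio was 0.04. None of the 4 passed with the size factor as a covariate. Their VSD differences with it were 0.0354 (Ppm1d), 0.0524 (Ppm1l), 0.0302 (Ppm1f) and 0.0290 (Ppm1g). Without it they were 0.0493, 0.0566, 0.0363 and 0.0336, and the part of depth was not tested. Ppm1d (Wip1, the p53-induced phosphatase of the DNA damage response; ENSMUST00000020835, chr11:85311244-85347066, plus strand, 6 exons) had the smallest p of all phosphatase transcripts and lay between 154 and 185 normalized counts in Sham, with a median of 166, and between 177 and 236 in HF-HI, with a median of 187. Each HF-HI library exceeded the median of Sham and 5 exceeded the whole Sham range, the highest being replicates 7, 2 and 6. The means were 168 ± 12.3 in Sham and 196 ± 21.3 in HF-HI, a log2 ratio of 0.23 with a VSD difference of 0.05 ± 0.02 (SE) (limma unadjusted p = 0.0111, adjusted p = 0.422). Its p lay between 0.00816 and 0.0246 over the 15 fits that left out a library, and was 0.104 with the size factor as a covariate. Ppm1l (an enzyme of the endoplasmic reticulum membrane that acts on stress kinase signalling; ENSMUST00000029355, chr3:69316861-69560802, plus strand, 4 exons) lay between 2132 and 2316 normalized counts in Sham, with a median of 2196, and between 2256 and 2559.6 in HF-HI, with a median of 2319. Again each HF-HI library exceeded the median of Sham, and 4 exceeded the whole Sham range, with HF-HI replicates 3 and 4 highest. The means were 2218 ± 78.1 in Sham and 2363 ± 121 in HF-HI, a log2 ratio of 0.09 with a VSD difference of 0.06 ± 0.02 (SE) (limma unadjusted p = 0.0187, adjusted p = 0.476), and the p was 0.0709 with the size factor as a covariate.

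Ppm1f (POPX2, a phosphatase that acts on CaMKII and PAK; ENSMUST00000027373, chr16:16896469-16927364, plus strand, 8 exons) lay between 517 and 567 normalized counts in Sham, with a median of 542, and between 549 and 686 in HF-HI, with a median of 573. Here too the 8 HF-HI values exceeded the median of Sham, 5 of them the whole Sham range, and HF-HI replicate 7 alone reached the highest value. The means were 545 ± 17.7 in Sham and 584 ± 43.1 in HF-HI, a log2 ratio of 0.10 with a VSD difference of 0.04 ± 0.02 (SE) (limma unadjusted p = 0.0495, adjusted p = 0.564). Its p was above 0.05 in 11 of the 15 fits that left out a library, for Sham replicates 1 and 3 to 7 and HF-HI replicates 1, 2, 3, 6 and 7 (up to 0.0960). Ppm1g (a nuclear enzyme that acts on splicing factors; ENSMUST00000031032, chr5:31202668-31220687, minus strand, 10 exons) lay between 220.1 and 272 normalized counts in Sham, with a median of 249, and between 247 and 291 in HF-HI, with a median of 265. Of the HF-HI libraries, 7 exceeded the median of Sham, and the groups overlapped. The means were 246 ± 19.8 in Sham and 269 ± 14.6 in HF-HI, a log2 ratio of 0.13 with a VSD difference of 0.03 ± 0.01 (SE) (limma unadjusted p = 0.0393, adjusted p = 0.540). The p went above 0.05 on leaving out any of Sham replicates 1, 2, 3 and 7 and HF-HI replicates 1, 2, 6 and 7 (up to 0.0919). The other 6 Ppm1 transcripts, from Ppm1a, Ppm1b, Ppm1e, Ppm1h and Ppm1k, had log2 ratios from −0.15 to 0.06.

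**Figure D5:**
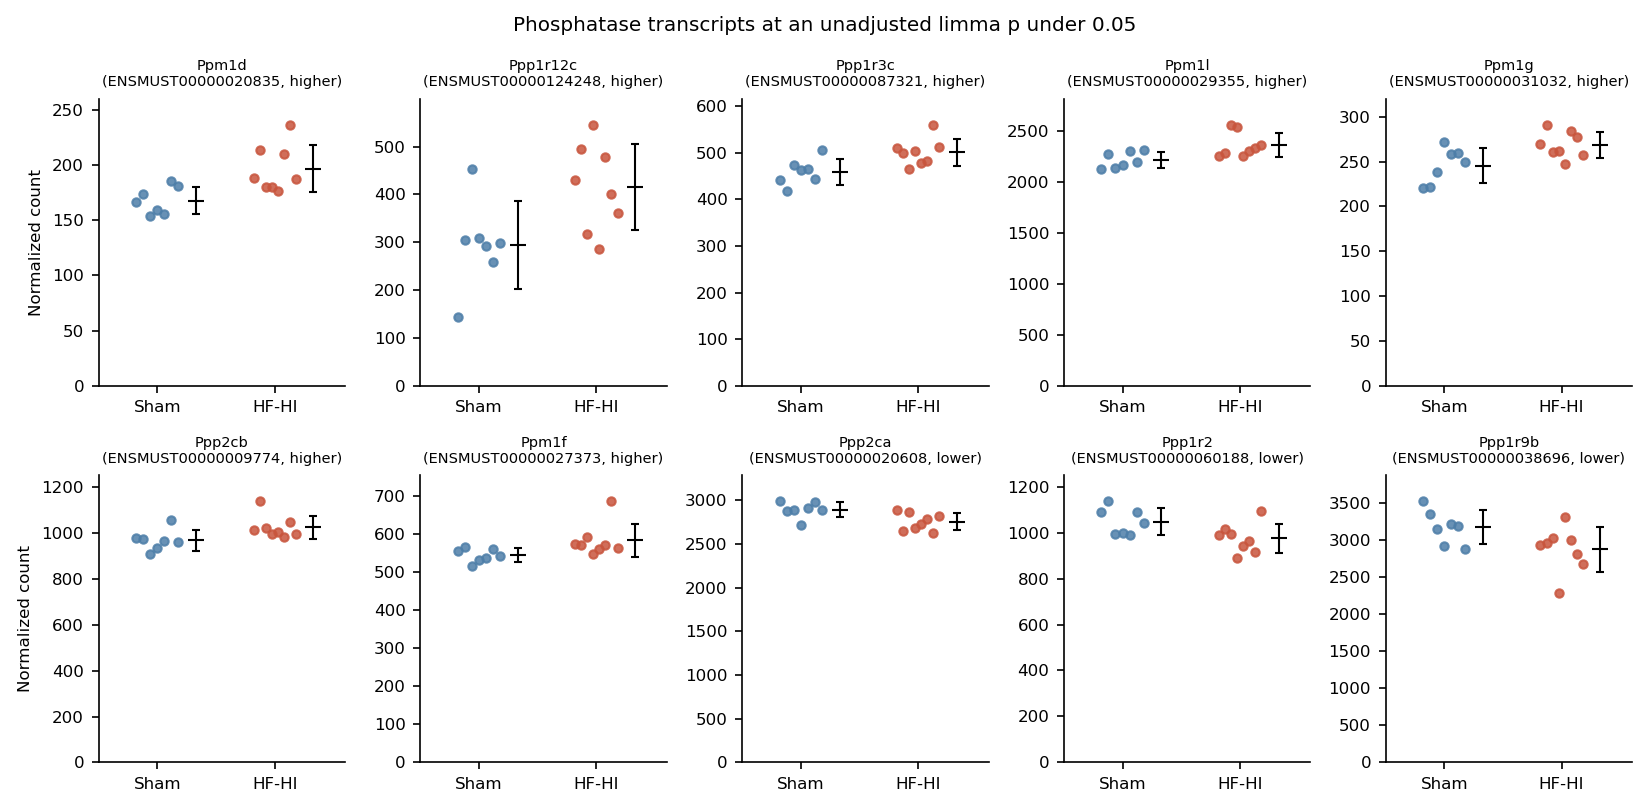
Each panel shows the normalized counts of 1 of the 10 phosphatase transcripts at an unadjusted limma p under 0.05, with a point per library for Sham and HF-HI, the mean and SD in black, and axes from 0. The log2 ratios run from −0.14 to 0.49, and in every panel at least 1 HF-HI library lies within the Sham range.

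With reads summed over all listed transcripts of a gene, 8 of 60 phosphatase genes (5 higher, 3 lower) passed an unadjusted p of 0.05 in limma voom, against 731 of 7741 genes (9.44%), with 5.19% higher and 4.25% lower. None of the 60 passed the adjusted threshold, as 0.0129% of all genes did. With the size factor as a covariate 2 phosphatase genes passed the unadjusted threshold and none of the 8 did (p from 0.0553 to 0.277). Those higher were Ppm1d, Ppm1l, Ppp1r3c, Ppm1f and Ppp4r1, and those lower were Ppp2ca, Ppp2r2b and Ppp1r2. Ppm1g, Ppp1r12c and Ppp1r9b did not pass as genes, and neither did Ppp2cb. Without HF-HI replicates 2 and 4, 4 genes passed, all among the 8 and all higher. Leaving out 1 library gave 4 genes without Sham replicate 1 or HF-HI replicate 7, and 5 without Sham replicate 6 or HF-HI replicate 4. For the covariate and for the libraries left out, the share of all genes passing is not given here.

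The coefficient of variation of normalized counts had a median of 6.58% in Sham and 7.81% in HF-HI over the 75, and of 10.5% and 12.4% over all listed transcripts. Abundance was not matched in this comparison. The 6 phosphatase transcripts of widest spread, from Ppp1r16b, Ppp3cb, Ppp4r3a, Ppp2r5c, Ppp1r9a and Ppp1r12c, all belong to genes with more than 1 listed transcript.

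Promoter windows from RefSeq (GRCm38.p6, from 250 bases before to 50 after the gene's start) were given for 48 of the 60 phosphatase genes. The full cAMP response element, TGACGTCA, whose reverse complement is itself, was present in 5 of these 48 (10.4%) and in 549 of 27025 genes (2.03%) of the same table. The 27025 genes include genes with no listed transcript, and no share over the listed genes was formed. The element was chosen after values had been seen, and the shares were not tested. A match is a description of letters and does not say that a factor binds there. Of the 8 genes with a transcript past the unadjusted threshold and a promoter entry, Ppm1d, Ppp1r12c and Ppp2ca held it, the first with higher values, the second with transcripts of opposite log2 ratio and the third with lower values in HF-HI. Ppm1a and Ppp2r2d held it as well, at log2 ratios of 0.01 and −0.02. TGACGCAA, searched on both strands, was in none of the 48 and in 0.562% of all genes, and 1 form of the serum response element was in none of the 48 and in 0.0777%. The windows around the element are shown for the 3 genes named first, with the element in capitals and the coordinates those of the element. It ended 77 bases before the RefSeq start in Ppm1d, 61 in Ppp1r12c and 18 in Ppp2ca. The measured Ppp2ca transcript, ENSMUST00000020608, is annotated to start further upstream, at chr11:52098681. For this transcript the element therefore lies within the annotated span and not before its start.
Ppm1d, chr11:85311169-85311176: agcgagccgagTGACGTCAtcaggagaaag
Ppp1r12c, chr7:4501742-4501749, minus strand: ggtcggcgccgTGACGTCAatataccgagc
Ppp2ca, chr11:52098798-52098805: tgacgctggcgTGACGTCAccacgccgggc

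Other genes of phosphatase signalling are given from lists beside the 8.83% of all transcripts. Of 72 transcripts of partners and assembly factors, 3 were higher and 3 lower, with a median log2 ratio of −0.01. A transcript of Arpp19 (ENSMUST00000170310), a PP2A inhibitor that acts in mitosis and in striatal signalling, lay between 205 and 299.6 normalized counts in Sham, with a median of 232, and between 7.69 and 298 in HF-HI, with a median of 38.5, lower in HF-HI (limma unadjusted p = 0.00121, adjusted p = 0.293), while its 5 other listed transcripts did not pass. A transcript of striatin (Strn, a PP2A B‴ subunit; ENSMUST00000145910) was lower at a log2 ratio of −0.17. Strn ENSMUST00000024881 had a log2 ratio of 0.39 and did not pass (limma unadjusted p = 0.439). A transcript of Cttnbp2, a striatin partner in spines (ENSMUST00000148602), was higher at 0.27. Of 21 transcripts listed as other serine-threonine phosphatases, 3 were higher and none lower. The 21 include a transcript of Pphln1, which does not encode a phosphatase and did not pass. Those higher were both transcripts of Phlpp2, which acts on Akt, with log2 ratios of 0.17 and 0.10, and Ctdsp2 ENSMUST00000105256 at 0.14. Ctdsp2 ENSMUST00000105255 had a log2 ratio of −0.38 and did not pass (limma unadjusted p = 0.118). The groups did not overlap for Phlpp2 ENSMUST00000034175, with a highest Sham value of 252 and a lowest HF-HI value of 256 normalized counts. Among the partners they did not overlap for Phactr1 ENSMUST00000128646, with a lowest Sham value of 2263 and a highest HF-HI value of 2231. Phactr1 ENSMUST00000132050, ENSMUST00000149235 and ENSMUST00000148891 had log2 ratios of the opposite sign, 0.09, 0.24 and 0.30, and did not pass (limma unadjusted p = 0.546, 0.0625 and 0.658). Over all listed transcripts, 16 (0.154%) had groups that did not overlap. Of 58 transcripts of synaptic substrates and anchors 5 were higher and 6 lower, with a median log2 ratio of 0.02. Camk2a had means of 7779 ± 392 in Sham and 8585 ± 417 in HF-HI (limma unadjusted p = 0.00165, adjusted p = 0.311), the Ryr2 transcripts ENSMUST00000021750 and ENSMUST00000170156 had log2 ratios of 0.29 and −0.26 (unadjusted p = 0.00826 and 0.0944), and the Camk2b transcripts ENSMUST00000109815 and ENSMUST00000109813 had log2 ratios of 0.72 and −0.24.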

How the data were processed

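Cortical total RNA of 15 libraries (7 Sham, 8 HF-HI) was sequenced. Per the study's methods and the submitters' processing notes, the authors prepared ribosome-depleted stranded libraries, aligned reads to mm10 with STAR, estimated counts per transcript with eXpress and transformed them with DESeq2. The authors deposited variance-stabilized values on the log2 scale for 10370 transcripts. The annotation release was not given in the sources used here. Low counts are compressed on it: doubling 100 normalized counts adds 0.20, and doubling 1000 adds 0.53. Ratios of means are therefore printed too.

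The transformation was inverted, and 100% of values were whole multiples of the worth of a read (tolerance 0.1 reads). Intervals from depth were not formed, since the recovered reads cover listed transcripts only. Of the transcripts, 10241 had a GENCODE M21 entry and 129 had not.

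The deposited values were tested per transcript by limma 3.58.1 under R 4.3.3. The model held the group alone, its eBayes prior followed the mean level, and p-values were two-sided, adjusted by Benjamini-Hochberg over all transcripts at the study's threshold of 0.1, and counted at an unadjusted p under 0.05. Gene sums of recovered reads were tested with limma voom over 7741 genes, and shares with limma on log2 odds (0.5 reads added) over 4138 transcripts. The share test divides reads of a transcript by those of the other listed transcripts of its gene. The code was tested on simulated data. The members, classes, marker and pathway lists were chosen with earlier results of these data known, and the marker and pathway lists were written from general knowledge. Named were up to 12 members of smallest p under 0.05, the catalytic subunits, Ppp3r1 and Ppp1r9b, the 3 most abundant, up to 8 members each by the gene and share tests, and up to 3 genes per list by smallest p. The element TGACGTCA, the Ppp2ca to Ppp2cb ratio, Ppp1r9a, Ppp2r1a, Phactr1, the class shares per kb and the sequences shown were chosen after values had been seen. So was leaving out HF-HI replicates 2 and 4 together. Alternatives changed the prior, scaling, scale, filter, weights, depth covariate, replicate block and libraries used.

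The labels do not say whether replicate numbers pair the libraries, and the main fits did not pair them. Deviations of same-numbered libraries correlated between −0.138 and 0.0905, which cannot tell whether those libraries were handled together.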

Additional observations from a re-analysis of the deposited data

Results flagged for a closer look

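Single libraries stood far from the others of their group in 10 of 60 groups of values examined, by Dixon's criterion at 95%, which flags about 1 in 20 groups by chance. In Sham these were Ppp1ca in replicate 6, at 1378 normalized counts, Ppp2r2b ENSMUST00000025377 in replicate 2, at 325, Ppp2r2c in replicate 3, the lowest of its group at 4198, and Ppp2ca in replicate 4, the lowest at 2716. In HF-HI they were Ppp2r2b ENSMUST00000025377 in replicate 4, the lowest at 132, Ppp2r2b ENSMUST00000117687 in replicate 7, the lowest at 340.5, and Ppp3cc in replicate 3, the lowest at 159. The highest HF-HI values of Ppp2cb (1137 in replicate 2), Ppp3cb ENSMUST00000159027 (757 in replicate 2) and Ppm1f (686 in replicate 7) also stood apart. HF-HI replicate 2 is the library that stood apart over all transcripts. Without it the limma unadjusted p was 0.0879 for Ppp2cb, 0.0444 for Ppp2ca and 0.0218 for Ppm1d.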

How the results depend on the processing

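No phosphatase transcript, gene or share passed the adjusted threshold of 0.1 under any alternative run (0 in each). The 10 transcripts below an unadjusted limma p of 0.05 (7 higher, 3 lower) came to between 7 and 10 under the other priors, scalings, pseudocounts, library weights, filter and replicate block. It was 6 with voom on recovered reads (1 lower), 3 with the size factor as a covariate (2 higher, 1 lower) and 5 without HF-HI replicates 2 and 4 (4 higher, 1 lower). Only 4 were higher with a filter at 300 normalized counts, where fewer transcripts were tested, and 4 with the replicate block. Leaving out a library gave 4 to 12 transcripts (4 to 8 higher, 0 to 5 lower), the lowest without Sham replicate 1, where 4 passed, and 6 without Sham replicate 2 or 6. The count of 8 genes was 2 with the covariate (1 higher, 1 lower), 4 without HF-HI replicates 2 and 4 (0 lower), had 3 higher with the filter, and 4 to 9 without a library (3 to 6 higher, 0 to 4 lower). The 2 transcripts with a changed share became 1 with the covariate, 0 with the replicate block and 0 to 6 without a library (6 on leaving out Sham replicate 4, 4 on leaving out HF-HI replicate 5, and 0 for any of Sham replicates 1 and 6 and HF-HI replicates 2, 4 and 8). Apart from the 5.14% of all transcripts with the covariate, the share of all transcripts or genes passing under each setting is not given here. The cause of these changes was not tested.

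The replicate block pairs libraries by number only, and of 7 shared numbers only replicate 4 matched its own number best. Under it 7 transcripts passed, 6 of them among the 10, and 7 genes, 6 of them among the 8.

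Among the named members, signs turned only for those that had not passed the unadjusted threshold. The VSD difference of the Ppp1ca ENSMUST00000046094 transcript, 0.000630, was −0.000737 with libraries centred on their medians, −0.0224 with the covariate, −0.00816 with voom, −0.00997 with library weights and between −0.0119 and −0.000347 in 8 fits that left out a library, with a highest value of 0.0140 without Sham replicate 6. With the covariate it was 0.00416 for Ppp1cb, −0.0120 for Ppp1r9b ENSMUST00000107748, −0.0145 for Ppp3ca ENSMUST00000056758 and 0.0256 for Ppp3cb ENSMUST00000161445. For the Ppp3cc ENSMUST00000078434 transcript it was 0.00636 with voom and between 0.00378 and 0.00516 in 3 fits that left out a library, with a lowest value of −0.0101 without Sham replicate 4. Depth limits transcripts near 100 normalized counts most, and transcripts of lower mean than 107.9 normalized counts were not analysed here.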
